A study of Mus musculus with 6 samples.

Results

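Mitotic cells of the mouse glioma line GL261, grown with serum, were described in 2 libraries. A cell entered the description when its barcode held at least 8000 unique molecular identifiers (UMIs, each standing for 1 captured RNA molecule), at least 500 genes and under 10% mitochondrial UMIs. Each cell was given a score, the summed UMIs of Ube2c, Ccnb1, Ccnb2, Cdc20, Cenpa, Plk1, Aurka and Cenpf over all its UMIs. The mitotic cells were selected on that score as the top 10% of each library. They numbered 797, 387 in replicate 1 and 410 in replicate 2, of 7975 GL261 cells that met the limits and 22868 such cells in all 6 libraries. They were compared with the 50% of lowest score in the same library, 1937 and 2050 cells, here called the bottom cells.

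A cell that prepares to divide builds up cyclin B with its kinase Cdk1, condenses its chromosomes, separates its centrosomes and assembles a spindle of microtubules that attaches to each kinetochore. The spindle assembly checkpoint holds the anaphase-promoting complex in check until every kinetochore is attached. The complex, with its activator Cdc20 and the ubiquitin-conjugating enzyme Ube2c, then marks cyclin B and securin for destruction, and the cell divides. Many genes of this programme are transcribed late in the cycle, through the MuvB complex with B-Myb and FoxM1, and fall silent again in G1. GL261 is an established mouse glioma line that is widely used as a transplanted brain tumour.

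The series held 2 libraries of GL261, kept in a differentiation medium with fetal calf serum, and 4 of GL261-GSCs, cultures labelled glioblastoma stem cells and kept in a defined medium for such cells. No drug, deletion, age or time was given for either group, and each is a culture of 1 line, without host tissue. After Accutase dissociation and a detergent lysis buffer, droplets took up what the labels describe as single cells or nuclei, without saying which, for 5′ gene expression libraries. Nothing in the labels says that replicates came from separate cultures, so p-values measure the spread between these libraries, which may be technical. The libraries held 80899005 to 121309232 UMIs, and 66183292 and 61236969 of these lay in the GL261 cells kept of replicates 1 and 2. The 2 GL261 libraries shared 23 cell barcodes, where 21.5 would be shared by chance. The smallest library was replicate 4 of GL261-GSCs, with 1785 cells.

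The score had no gap at which a class of cells began. In replicate 1 the lowest member had 3869 score UMIs per 1000000 UMIs and the highest cell outside 3868, and in replicate 2 these were 4186 and 4184. Within 10% of that limit lay 80 members and 110 other cells in replicate 1, and 119 members and 123 other cells in replicate 2. The median score was 4867 and 4980 on that scale in the members and 269 and 428 in the bottom cells. The members are thus given as the upper end of a range, and whether they form a type of their own was not tested, since a limit set at a percentile leaves neighbouring scores on both sides. All 8 score genes had a UMI in 76.0% and 72.2% of the members, and the members held 36.0% and 31.6% of all score UMIs of their library. Among the bottom cells 183 and 125 had no UMI of any score gene.

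**Figure D1:**
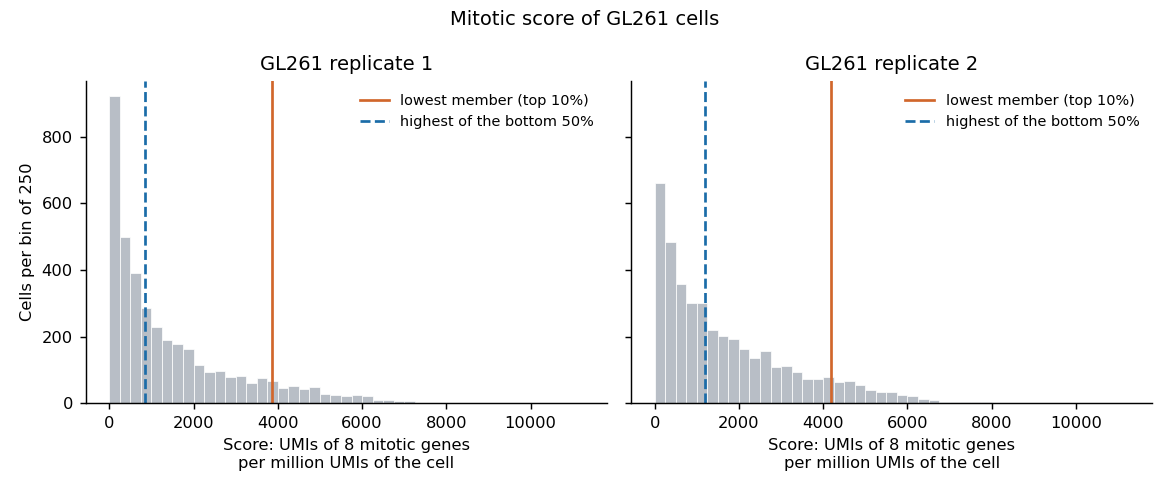
Number of GL261 cells (vertical axis) by mitotic score in UMIs per 1000000 UMIs of the cell (horizontal axis), for both replicates, with the limit of the top 10% (solid line) and of the bottom 50% (dashed line). The counts fall off without a gap at the upper limit, 3869 in replicate 1 and 4186 in replicate 2.

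The genes that chose the members are given as values, without a test. Levels here and below are in CPM, the UMIs of a gene per 1000000 UMIs of the summed cells of a class, with TMM scaling. Ube2c was at 2080 and 2313 CPM in the members of replicates 1 and 2 and at 114 and 185 in the bottom cells. Cenpf, a kinetochore-associated protein of late G2 and mitosis, was at 698 and 691 against 23.5 and 39.1. Cdc20 was at 650 and 633 against 50.1 and 67.8, the polo-like kinase gene Plk1 at 355 and 374 against 20.9 and 34.4, and Ccnb1, which encodes cyclin B1, at 121 and 123 against 7.74 and 11.01. The gap to the bottom cells, and the presence of the 4 genes that mark the class, follow from the choice of the cells and support nothing further. In barcodes of 100 to under 1000 UMIs, which hold free RNA, unscaled levels of Cenpf were 92.9 and 84.0 CPM, below the members and above the bottom cells. Most markers of other cell types were at or near 0: Ptprc, C1qa, C1qb, Aif1 and Tyrobp of the 8 myeloid markers had no UMI in the members of either library, nor had Aqp4, Slc1a2, Kdr, Cldn5, Rbfox3, Snap25, Hbb-bs or Hba-a1. The summed myeloid list, carried by the others of the list such as Cd68 and Csf1r, was at 13.05 and 15.23 CPM in members and 24.4 and 23.1 in bottom cells, without scaling. The list that was present was that of the oligodendrocyte lineage, led by Sox10, at 485 and 545 against 497 and 596.

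The promoters of these genes are shown because the late cell cycle genes are known for a CHR element near the start of transcription, read here as TTTGAA and its common variant spelled TTTAAA, and for boxes of the letters CCAAT before it. The sequences are those of RefSeq on GRCm38.p6, from 150 bases before the start to 30 after it, read in the direction of the gene. Capitals mark both CHR forms and the CCAAT box on either strand, and no marked stretch overlaps another in the pieces shown. On the opposite strand the first CHR form reads TTCAAA in these lines, a CCAAT box reads ATTGG, and the second CHR form is its own complement. The first 4 are score genes at chr2:164769779-164769958 (plus strand), chr4:118437314-118437493 (minus strand), chr13:100786457-100786636 (minus strand) and chr1:189688057-189688236 (minus strand). Aspm at chr1:139454623-139454802 (plus strand) and Hmmr at chr11:40733408-40733587 (minus strand) are spindle genes outside the score that are described below. Mcm6 at chr1:128359676-128359855 (minus strand), a replication gene that was lower in the members, is shown for comparison and holds CCAAT but neither CHR form. The pattern has exceptions in both directions, of which a pair is shown. Nusap1 at chr2:119618148-119618327 (plus strand), a spindle gene that rose, holds no CHR form and no CCAAT, and Gas2l3, which also rose, has no CHR form either. Ccne1 at chr7:38107461-38107640 (minus strand), a G1/S gene that was lower, holds the second CHR form.
Ube2c: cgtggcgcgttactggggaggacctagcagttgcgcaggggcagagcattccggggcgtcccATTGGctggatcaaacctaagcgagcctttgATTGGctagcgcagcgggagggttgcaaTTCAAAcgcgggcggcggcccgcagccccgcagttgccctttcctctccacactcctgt
Cdc20: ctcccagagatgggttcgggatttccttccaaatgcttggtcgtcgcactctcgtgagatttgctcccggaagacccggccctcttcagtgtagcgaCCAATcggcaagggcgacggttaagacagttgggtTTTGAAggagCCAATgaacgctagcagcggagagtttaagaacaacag
Ccnb1: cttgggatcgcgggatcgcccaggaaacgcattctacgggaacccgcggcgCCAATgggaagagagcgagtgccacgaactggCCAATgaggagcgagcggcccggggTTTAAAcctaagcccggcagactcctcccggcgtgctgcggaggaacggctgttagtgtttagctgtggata
Cenpf: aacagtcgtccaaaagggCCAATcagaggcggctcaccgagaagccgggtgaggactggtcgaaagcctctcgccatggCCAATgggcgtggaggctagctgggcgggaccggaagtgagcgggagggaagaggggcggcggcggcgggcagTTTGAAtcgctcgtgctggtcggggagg
Aspm: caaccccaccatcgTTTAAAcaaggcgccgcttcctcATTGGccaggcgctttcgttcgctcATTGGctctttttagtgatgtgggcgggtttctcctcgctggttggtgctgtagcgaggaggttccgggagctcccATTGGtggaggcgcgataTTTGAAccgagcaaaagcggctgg
Hmmr: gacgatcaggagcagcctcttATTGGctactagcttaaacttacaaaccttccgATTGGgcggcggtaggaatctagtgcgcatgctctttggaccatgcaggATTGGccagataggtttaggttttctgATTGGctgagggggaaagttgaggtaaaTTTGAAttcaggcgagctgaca
Mcm6: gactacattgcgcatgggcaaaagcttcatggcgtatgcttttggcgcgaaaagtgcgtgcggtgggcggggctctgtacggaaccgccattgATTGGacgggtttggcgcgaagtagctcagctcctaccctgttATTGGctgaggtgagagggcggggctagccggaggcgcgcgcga
Nusap1: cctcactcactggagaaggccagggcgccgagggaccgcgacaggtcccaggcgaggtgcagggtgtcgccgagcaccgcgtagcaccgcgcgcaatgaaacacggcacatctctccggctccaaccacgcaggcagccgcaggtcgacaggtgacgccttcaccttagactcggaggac
Ccne1: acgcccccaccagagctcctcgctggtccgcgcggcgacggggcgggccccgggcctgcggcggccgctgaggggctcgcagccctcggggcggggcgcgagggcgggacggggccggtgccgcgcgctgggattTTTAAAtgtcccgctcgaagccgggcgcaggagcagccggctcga

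In the 300 bases of the table, from 250 before the start to 50 after it, either CHR form was found in 8 of 8 promoters of the score genes. It was found in 63.8% of the 105 promoters, of 94 genes, that belonged to genes of 6 mitotic lists that rose outside the score, and in 70.6% of 51 promoters of those that rose at least 4-fold. The share was 25% in the 60 promoters of the G1/S and replication list, 19.4% over all genes tested and 27.6% over all 32851 promoters of the table. For all genes outside the score that rose at least 2-fold, listed or not, it was 49.4%, and for those that fell at least 2-fold 14.8%. Within 50 bases of the start the shares were 100% for the score genes, 49.5% for the listed genes that rose, 15% for the G1/S list, 5.06% for all genes tested and 8.28% for the table. At least 2 CCAAT boxes were found in 87.5% of score gene promoters, 41.0% of those of the listed genes that rose, 40.0% of those of the G1/S list and 14.4% of those of all genes tested. Within 50 bases of the start a CCAAT box was found in 48.6% of the promoters of the listed genes that rose, 36.7% of those of the G1/S list and 14.5% of those of all genes tested. These shares describe the promoters and were not tested. The mitotic lists hold known targets of the MuvB and FoxM1 complexes, so their shares follow in part from the choice of genes. A match says that the letters are present, not that a factor binds.

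Genes outside the score were compared between members and bottom cells over sums of UMIs per library, with the edgeR quasi-likelihood test fitted over all 6 libraries. Of 13782 genes tested, 1376 (9.98%) were higher in the mitotic cells of GL261 and 1132 (8.21%) lower at an adjusted p under 0.05, 278 and 287 of them by at least 2-fold. The median log2 fold change over all genes was -0.02. Scaled by library size alone, without TMM, 795 were higher and 2081 lower and that median was -0.13, so small changes are relative to the scaling. Left with 1 GL261 library, whose spread was then taken to be that of the others, the test called 435 genes without replicate 1 and 549 without replicate 2, of which 430 and 545 were among the 2508. The cells were ranked on genes of the same programme, so the counts of mitotic lists below describe what goes with the score, and nothing is read from their distance to the background.

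**Figure D2:**
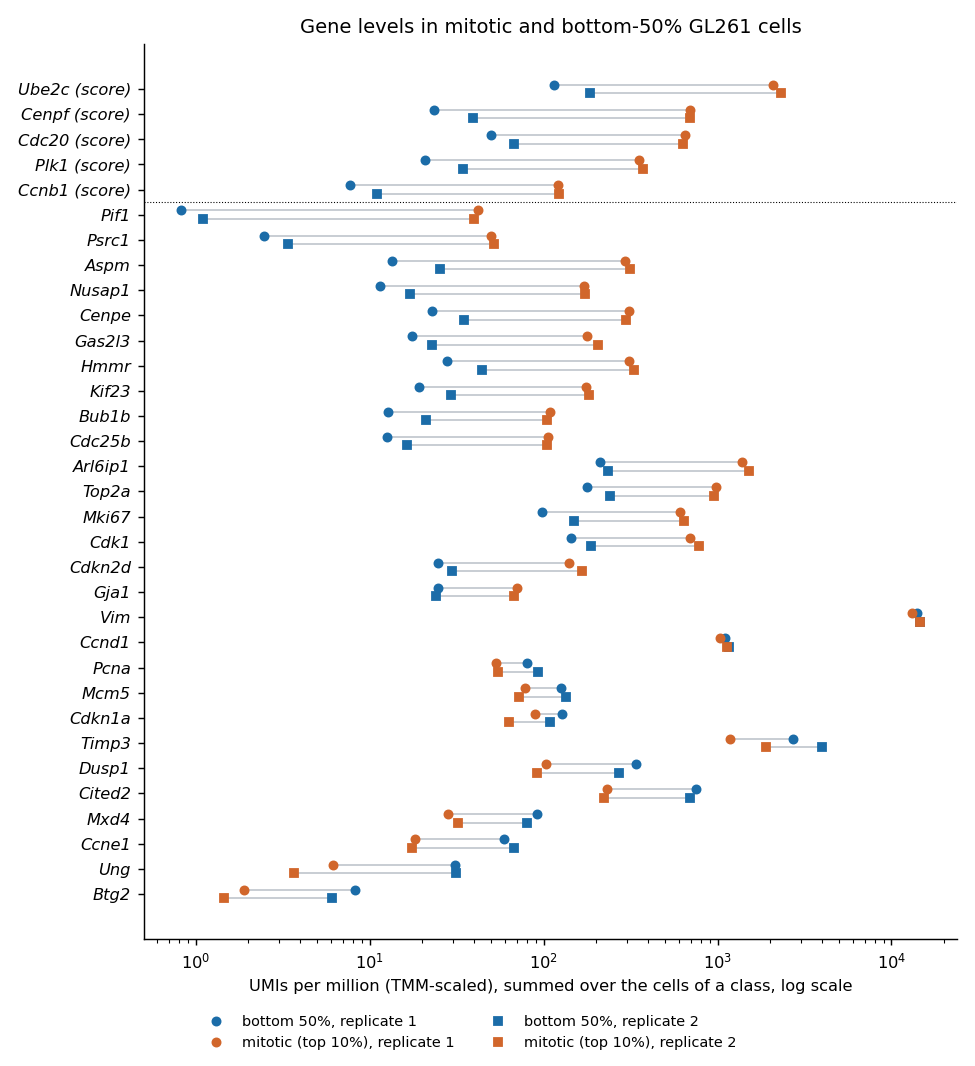
Levels of 33 genes in CPM (TMM-scaled, log axis) in the members (orange) and the bottom cells (blue) of GL261 replicate 1 (circles) and replicate 2 (squares); genes above the dotted line chose the members. Pif1 has the widest gap, from 0.820 and 1.104 to 41.8 and 39.9, and the values of Vim and Ccnd1 overlap between the classes.

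Regulators of entry into mitosis were higher in the members, but not all of them. Of 20 in the list, 14 rose and none fell, beside 9.98% of all genes that rose (median log2 fold change 1.29). Cdk1, the kinase that drives entry, was at 698 and 779 CPM in the members and 143 and 188 in the bottom cells (log2 fold change 2.17, SE 0.21, edgeR adjusted p = 2.92e-05). Cdc25b, a phosphatase that activates it, was at 106 and 105 against 12.7 and 16.5 (2.86, SE 0.20, edgeR adjusted p = 2.22e-06), and Cdc25c rose by 3.17 on the log2 scale. Ccna2, encoding cyclin A2, was at 378 and 422 against 62.6 and 102, and Ccnf at 79.0 and 75.6 against 8.04 and 12.2. Wee1 and the transcription factor gene Foxm1 rose by 1.02 and 1.65 on the log2 scale. The early phosphatase Cdc25a (log2 fold change -0.04), the kinase Pkmyt1 (0.11) and Mybl2, encoding B-Myb (0.07), did not pass the test. Nek2, a centrosomal kinase, was at 139 and 140 against 15.5 and 18.9 (3.03, SE 0.25). Members of both libraries lay above both sums of bottom cells for each of the genes called here.

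The spindle list had the highest median of the lists, 2.40, with 34 of 39 genes higher and none lower. Aspm, which organises spindle poles (ENSMUSG00000033952.14, chr1:139454772-139494091), was at 294 and 315 CPM in the members and 13.4 and 25.2 in the bottom cells (log2 fold change 4.03, SE 0.25, edgeR adjusted p = 1.03e-06). Nusap1, a microtubule-binding protein, was at 170 and 173 against 11.5 and 17.2 (3.60, SE 0.24), and Hmmr, the hyaluronan-mediated motility receptor that also sits on the spindle, at 309 and 332 against 27.9 and 44.5 (3.18, SE 0.34). The bottom cells of replicate 2 were above those of replicate 1 for all 3, while the members hardly differed between replicates. Gas2l3, which links actin and microtubules and was in no list, was at 177 and 206 against 17.6 and 22.9 (3.25, SE 0.17). The kinesins Kif2c, Kif14, Kifc1 and Kif11 rose by 3.46, 3.18, 2.89 and 2.66 on the log2 scale, Troap by 3.13 and Tpx2 by 2.58. Arl6ip1, with the smallest p of the list, encodes a membrane protein of the endoplasmic reticulum and was at 1389 and 1525 against 211 and 233. Tubulin genes, whose close copies can share reads, rose by less than these, from 0.44 for Tubb2a to 2.21 for Tubb4b on the log2 scale, and Tuba1a (0.42), Tubg1 (0.20) and the transport kinesin Kif5b (0.07) did not pass the test.

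Of 37 kinetochore and checkpoint genes 29 rose and none fell (median 1.12), and 14 rose when GL261 replicate 1 was left out. Cenpe, a kinesin-like motor of the kinetochore, was at 309 and 298 CPM in the members and 23.0 and 34.9 in the bottom cells (log2 fold change 3.42, SE 0.31, edgeR adjusted p = 1.86e-05). The checkpoint kinase-like gene Bub1b was at 109 and 104 against 12.8 and 21.1 (2.69, SE 0.30). The Ndc80 complex rose throughout, with Spc25 at 2.33, Nuf2 at 2.02, Ndc80 at 1.69 and Spc24 at 1.25 on the log2 scale. The inner kinetochore was uneven: Cenpl (2.20) and Cenpc1 (1.22) rose, while Cenpk (0.40), Cenph (0.25) and Cenpu (0.22) did not pass the test, nor did the Mis12 complex genes Mis12 (0.28), Dsn1 (0.21) and Nsl1 (0.47). Mad2l1 rose by 1.07 on the log2 scale and its binding partner Mad1l1 by 0.40.

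The chromosomal passenger complex and the genes of sister chromatid cohesion were in 1 list of 18, of which 12 rose and none fell (median 0.96). Aurkb, the kinase of the complex, was at 138 and 141 CPM against 31.4 and 43.7 (log2 fold change 1.91, SE 0.26, edgeR adjusted p = 0.000371), and its partners Birc5, Cdca8 and Incenp rose by 2.22, 2.14 and 1.77 on the log2 scale. The shugoshins Sgo2a and Sgo1, which protect cohesion at centromeres, rose by 2.45 and 1.63. Of the cohesin ring itself Rad21 rose by 1.43 and Smc1a by 0.42, and Smc3 (-0.02), Stag2 (-0.05) and Stag1 (0.27) did not pass the test. Psrc1, which the list holds beside these and which encodes a microtubule protein, was at 50.1 and 51.6 CPM against 2.46 and 3.41 (4.12, SE 0.13).

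Of 19 genes of chromosome condensation and late chromatin 17 rose (median 1.13), and 8 rose without GL261 replicate 1. Top2a, a topoisomerase that disentangles chromosomes, was at 978 and 953 CPM against 178 and 242 (log2 fold change 2.22, SE 0.25, edgeR adjusted p = 0.000105). Mki67, which coats mitotic chromosomes, was at 609 and 640 against 97.8 and 150 (2.37, SE 0.26). Within condensin, the subunits of condensin I, Ncapd2, Ncapg and Ncaph, rose by 1.73, 1.52 and 1.498 on the log2 scale, beside 1.46 and 1.02 for the shared Smc4 and Smc2. Of condensin II, Ncaph2 rose by 0.62, and Ncapd3 (0.27) and Ncapg2 (-0.11) did not pass the test. The difference between the subunits of condensin I and II was not tested itself.

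Cytokinesis had 20 of 22 genes tested, of which 12 rose and 1 fell (median 1.20). Kif23 and Racgap1, the parts of centralspindlin, rose by 2.91 and 1.77 on the log2 scale, Kif23 from 19.2 and 29.5 CPM in the bottom cells to 174 and 183. Kif20a, a kinesin of the midzone, was at 245 and 237 against 23.9 and 37.6 (a log2 fold change of 3, SE 0.28). Prc1, which bundles the midzone, was at 716 and 765 against 97.6 and 134 (2.69), and Ect2, Anln, Cit and Cep55 rose by 2.27, 1.96, 1.87 and 2.64. The general contractile and abscission genes of the list, Rhoa (0.11), Myh9 (0.05), Chmp4b (0.01) and Pdcd6ip (0.00), did not pass the test, and Rhob fell by 0.43. Pif1, a DNA helicase that the list also holds (ENSMUSG00000041064.13, chr9:65587160-65595967), was at 41.8 and 39.9 CPM in the members against 0.820 and 1.104 (5.41, SE 0.24, edgeR adjusted p = 1.30e-07). It was near 0 in the bottom cells of both libraries.

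The machinery of anaphase rose in part, 12 of 25 genes with a median of 0.26, and 5 and 8 rose without GL261 replicates 1 and 2. The largest values were those of regulators. Cdkn3, a phosphatase of cyclin-dependent kinases, was at 135 and 147 CPM against 12.6 and 19.7 (log2 fold change 3.16, SE 0.30). Fzr1, the activator of late mitosis and G1, was at 203 and 201 against 38.3 and 41.5 (2.34, SE 0.14, edgeR adjusted p = 6.20e-07), and Pttg1, encoding securin, at 335 and 325 against 76.6 and 91.1 (1.98). Espl1, the separase that securin holds back, and Ube2s rose by 1.51 and 1.29. Of the core subunits Cdc27 rose by 0.86 and Cdc23 by 0.56, while Anapc1, Anapc2, Anapc4, Anapc5, Anapc7 and Cdc16 lay between -0.02 and 0.26 and did not pass the test. Of 19 centrosome genes 13 rose (median 0.85), and 8 rose without GL261 replicate 1, with Sapcd2 at 112 and 118 CPM against 14.3 and 17.9 (2.84, SE 0.16), Plk4, the kinase of centriole duplication, at 0.86 and Cep192 at 0.89. Of 35 nuclear envelope genes 18 rose and 1 fell (median 0.29). Lmnb1, encoding lamin B1, rose by 1.1 and Sun2 by 1.37, the A-type lamin gene Lmna was at -0.11 and did not pass the test, and Syne1 fell by 0.29. The counts for the nuclear envelope depended on both libraries, with 2 and 4 genes higher when replicate 1 or replicate 2 of GL261 was left out.

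**Figure D3:**
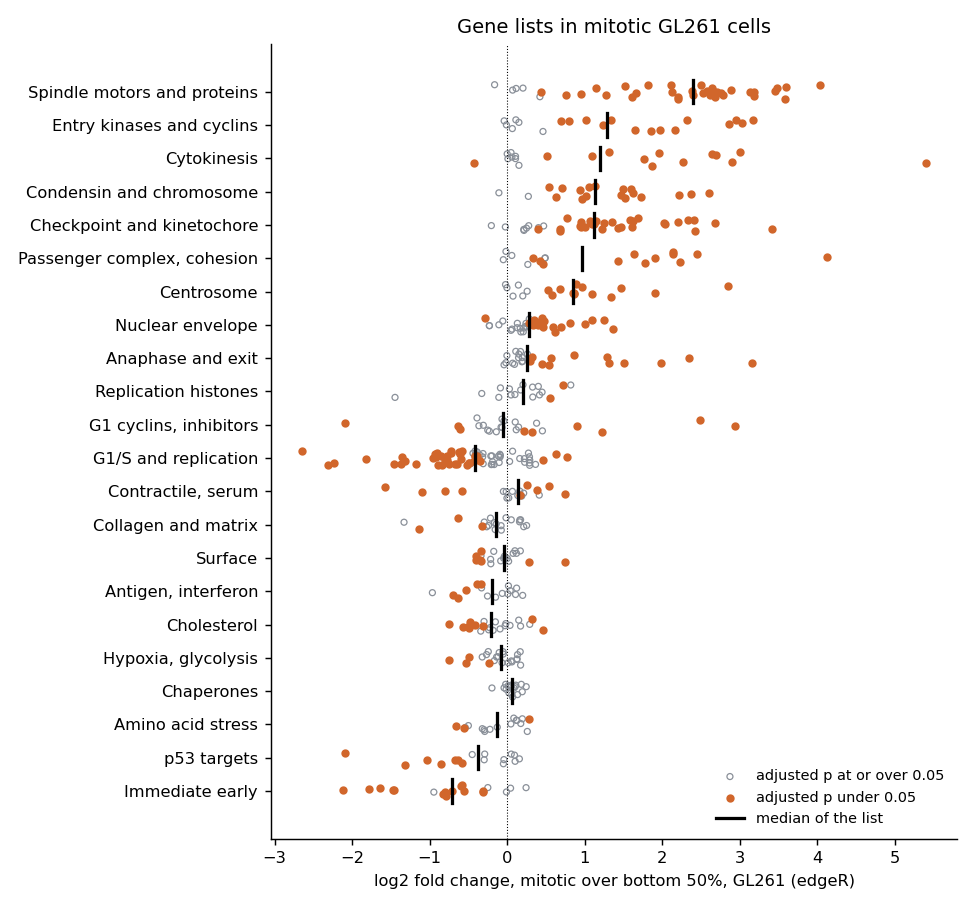
Log2 fold change of mitotic over bottom cells in GL261 (horizontal axis) for each tested gene of 22 lists (rows), filled where the edgeR adjusted p was under 0.05, with the median of each list as a bar. The spindle list sits highest with a median of 2.40 and the immediate early list lowest with -0.71.

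Cell by cell, and with every cell thinned to 8000 UMIs, the 155 genes of the 6 lists from entry to cytokinesis outside the score summed to a median of 256 and 261 UMIs in the members and 104 and 121 in the bottom cells. Of the members 99.2% and 99.0% lay above the 95th percentile of the bottom cells of their library. The classes overlapped at their edges, with members as low as 142 and 174 UMIs and bottom cells as high as 246 and 305. Over the deciles of the score, the spindle list held 0.292% and 0.315% of all UMIs in the lowest decile and 1.06% and 1.12% in the highest, and the checkpoint list rose from 0.0603% and 0.0702% to 0.266% and 0.262%. Both climbed in every step from decile to decile in both libraries. Mki67 went from 14.3 and 25.2 CPM in the lowest decile to 585 and 601 in the highest, without scaling, and Ccna2 from 12.4 and 30.04 to 363 and 395. Cdc6, a gene of replication licensing, peaked at 64.2 in the fourth decile of replicate 1 and at 64.8 in the third of replicate 2, and was at 11.1 and 7.39 in the highest.

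**Figure D4:**
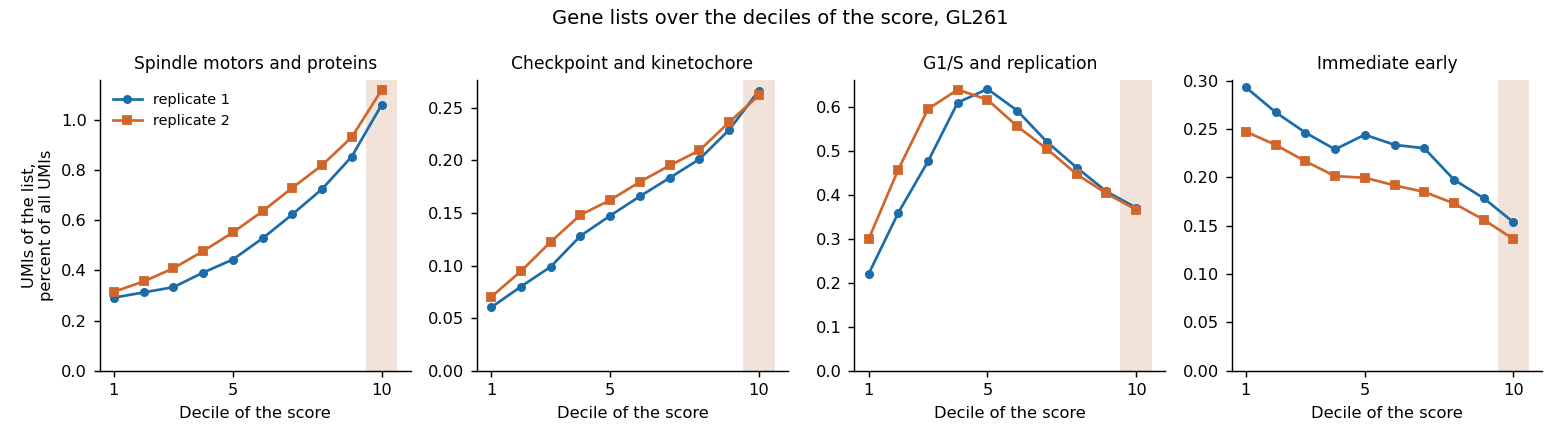
Share of all UMIs (percent, vertical axis) held by 4 gene lists over the deciles of the mitotic score (horizontal axis) in GL261 replicates 1 and 2, with the members shaded. The mitotic lists climb to the highest decile, the G1/S list peaks at 0.641% in the fifth decile of replicate 1 and 0.640% in the fourth of replicate 2, and the immediate early list is lowest in the members.

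Genes of the G1/S transition and of DNA replication were mostly lower in the members. Of 70, 36 fell and 3 rose (median -0.42), beside 8.21% and 9.98% of all genes tested. The 4 largest falls were those of Ung, Ccne2, Cdc6 and Ccne1. Ung, a uracil-DNA glycosylase, was at 6.14 and 3.70 CPM against 31.0 and 31.2 (log2 fold change -2.65, SE 0.18, edgeR adjusted p = 2.03e-06). Ccne1, encoding cyclin E1, was at 18.3 and 17.5 against 59.5 and 67.3 (-1.82, SE 0.16), and Ccne2 and the licensing factor Cdc6 fell by 2.32 and 2.23. Of the replicative helicase, Mcm6 was at 72.2 and 67.0 against 174 and 185 (-1.37), Mcm4 fell by 1.36, Mcm5 by 0.80 (77.7 and 72.2 against 126 and 135), and the clamp gene Pcna by 0.68 (53.5 and 54.5 against 80.8 and 92.4). Mcm5 and Pcna did not pass the test with either GL261 library left out. Genes of nucleotide supply did not pass it with all libraries: Rrm2 (0.29), Rrm1 (0.27), Tyms (0.37) and Tk1 (0.29). The histone chaperone gene Asf1b, Usp1 and Rfc5 rose by 0.77, 0.63 and 0.46.

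The bottom cells were mixed in this respect, and the direction turned with the part of them that was compared. In the bottom cells the list held 32 and 43 UMIs at the median of thinned cells, with quartiles of 15 and 56 in replicate 1 and 20 and 59 in replicate 2. The members lay within these quartiles, at a median of 29 and 28 with quartiles of 24 and 34 in both libraries. Over the deciles the list was at 0.22% and 0.299% of all UMIs in the lowest and at 0.371% and 0.367% in the highest. Against the bottom cells with few replication UMIs, a comparison added after the values were seen, 19 of the list rose and 2 fell (median 0.51), and Pcna and Mcm5 were at 0.04 and 0.33 on the log2 scale. Against those with many, 61 fell and none rose (median -1.04). The split was made on this list, so that these counts follow from it in part. Of the mitotic lists the spindle list kept a median of 3.45 and 1.90 in these comparisons, and the passenger list 2.66 and 0.70. Without replicate 1 or 2 of GL261, 18 and 10 of the replication genes fell. Of 17 replication histone genes tested, whose mRNAs mostly lack a poly(A) tail and whose close copies can share reads, 2 rose and the median was 0.20. That share lies near the 9.98% of all genes that rose, and nothing is read from the count.

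Among inhibitors of the G1 kinases, 2 of the INK4 family rose with the mitotic genes. Cdkn2d was at 139 and 167 CPM in the members against 24.6 and 29.9 (log2 fold change 2.49, SE 0.12, edgeR adjusted p = 2.44e-07), and Cdkn2c at 41.3 and 47.4 against 4.67 and 6.99 (2.94, SE 0.17). Cdkn2a (0.10) and Cdkn2b (0.12) did not pass the test. Of the Cip/Kip family Cdkn1b rose by 0.90, from 41.6 and 43.3 to 74.1 and 84.7, and Cdkn1a, a target of p53, fell by 0.64, from 128 and 109 to 89.5 and 63.3 (edgeR adjusted p = 0.0225). With either GL261 library left out Cdkn1a did not pass the test. Ccnd1, the cyclin of G1, was at 1038 and 1128 against 1108 and 1159 (-0.07, SE 0.06, edgeR adjusted p = 0.459), and its classes overlapped. In the list of 24 tested genes 6 rose and 3 fell, beside 9.98% and 8.21% of all genes. The share that fell lies near that of all genes, and nothing is read from it. Of 16 genes of the p53 response 7 fell and none rose (median -0.37), beside 8.21% of all genes that fell. Btg2 was at 1.90 and 1.45 CPM against 8.29 and 6.06 (-2.10, SE 0.36). Mdm2 (-0.05), Bax (0.10) and Ccng1 (-0.04) did not pass the test. The lowest value of both lists was that of Btg2, so the lists overlap and their counts are not separate. Without either GL261 library in turn 2 of the p53 genes fell, and 4 of the G1 list rose.

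Immediate early genes, which cells transcribe within minutes of a growth factor or stress signal, were lower in the members. Of 19, 14 fell and none rose (median -0.71), beside 8.21% and 9.98% of all genes tested. Dusp1, a phosphatase of MAP kinases, was at 104 and 92.1 CPM against 342 and 271 in the bottom cells (log2 fold change -1.64, SE 0.08, edgeR adjusted p = 2.44e-07). Fos was at 11.8 and 5.95 against 31.0 and 18.3 (-1.48, SE 0.23), and Egr1 at 28.0 and 4.82 against 74.3 and 32.7 (-1.79, SE 0.20). As a ratio, Egr1 differed more between the members of the 2 libraries than between the classes of replicate 1, and it was lower in the members of each. Fosl2, Junb and Myc fell by 0.80, 0.79 and 0.56. Jun (-0.25), Klf6 (-0.01), Ier5 (0.04) and Fosl1 (0.24) did not pass the test. In cells thinned to 8000 UMIs the list had a median of 11 and 10 UMIs in the members and 18 and 16 in the bottom cells, so that the direction was the same at equal depth. Without replicate 1 or without replicate 2 of GL261, 5 of the list fell. Mitochondrial UMIs, an indicator of RNA quality, were at 1.002% and 0.973% in members and 1.04% and 0.975% in bottom cells, and their part in this result was not tested.

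Other falls lay outside the cell cycle lists. Cited2, a transcriptional co-regulator (ENSMUSG00000039910.10, chr10:17723218-17725674), was at 233 and 222 CPM against 748 and 691 (log2 fold change -1.66, SE 0.11, edgeR adjusted p = 1.33e-06). Mxd4, of the Max dimerisation family, was at 28.2 and 32.3 against 91.7 and 80.7 (-1.51, SE 0.16). The interferon-inducible Ifi213 fell by 1.70 and Slfn9 by 1.5, and Slfn9 was at 0.37 on the log2 scale against the bottom cells with few replication UMIs. The serum response list split, the YAP targets Ctgf and Cyr61 having log2 fold changes of -1.099 and -0.80, and the smooth muscle genes Tagln and Acta2 higher, Tagln at 107 and 191 against 70.1 and 103 (0.75) and Acta2 by 0.53. Timp3, an inhibitor of matrix metalloproteases (ENSMUSG00000020044.13, chr10:86300372-86349506), was at 1182 and 1890 against 2703 and 3982 (-1.13, SE 0.06, edgeR adjusted p = 6.20e-07). It was lower in the members of each library, though the libraries differed in level.

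Most metabolic and surface lists had medians near 0. Of 22 cholesterol genes 2 rose and 7 fell (median -0.20), with Msmo1, a sterol oxidase, at 57.6 and 54.0 CPM against 83.3 and 74.0 (log2 fold change -0.49). Of 16 antigen presentation and interferon genes 5 fell and none rose (median -0.20), among them the peptide transporters Tap2 and Tap1, lower by 0.69 and 0.63. Of 22 hypoxia and glycolysis genes 4 fell and none rose, with Ddit4, an inhibitor of mTORC1, at 133 and 165 against 257 and 245 (-0.76), though against bottom cells with many replication UMIs its log2 fold change was 0.076. Of 20 collagen and matrix genes 3 fell, of 21 surface genes 2 rose and 5 fell, and of 17 amino acid response genes 1 rose and 2 fell, with Atf5 at -0.66. Over all genes tested 9.98% rose and 8.21% fell, and where a list's share lies near these nothing is read from its count, as for the rises in the cholesterol, surface and amino acid lists and the falls in the amino acid list. None of 18 chaperone genes passed the edgeR test (3 at an unadjusted p under 0.05, 0 by DESeq2 and 3 by limma-voom), and their log2 fold changes lay between -0.20 and 0.25 (Hspd1 0.18, edgeR adjusted p = 0.0604). Vim, encoding vimentin, was at 13172 and 14543 against 13959 and 14675 (-0.05, SE 0.04). Few of these calls held with 1 GL261 library: without replicate 1 or replicate 2, 0 and 0 of the antigen genes, 0 and 1 of the cholesterol genes, 1 and 1 of the hypoxia genes and 2 and 1 of the matrix genes fell. Scaled by library size alone these medians moved down by about as much as that of all genes, so none of the small ones is read as a direction.

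In the same fit the change of mitotic cells was compared between GL261 and GL261-GSCs, whose mitotic cells, 1487 in number, were chosen by the same rule and set against 7445 bottom cells. No difference was called in the spindle, checkpoint, passenger or cytokinesis list, by edgeR (5, 1, 0 and 3 genes at an unadjusted p under 0.05), DESeq2 or limma-voom. With edgeR 1 was called in each of the entry (Mybl2, 0.62), condensation (H2afx), centrosome (Ofd1, 0.55) and nuclear envelope (Syne2, 0.53) lists. Of the 12 genes of largest rise among those of an average log2 CPM of at least 5, none had a difference that passed the test, with SEs of 0.21 to 0.41 on the log2 scale, which does not show that they changed alike. Aspm rose by 4.03 in GL261 and 3.73 in GL261-GSCs (difference 0.30, SE 0.29, edgeR adjusted p = 0.698). Hmmr rose by 3.18 in both (difference 0.00, SE 0.41). The difference was called for 164 of 13782 genes (1.19%), more positive in GL261 for 123 and more negative for 41. By library size alone 47 were more positive and 55 more negative, and with the size factors of DESeq2 70 and 39. Both GL261 libraries were needed: without replicate 1 the test left 2 genes, Timp3 and Egr1, and without replicate 2 it left Timp3 and Thbs1. Without replicates 1, 2, 3 and 4 of GL261-GSCs it called 93, 101, 40 and 399. The 164 genes are therefore given as values of these libraries.

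Timp3 fell in GL261 (above) and rose in GL261-GSCs, where it was at 227 to 267 CPM in the members and 181 to 216 in the bottom cells (0.30). Its difference was -1.43 (SE 0.08, edgeR adjusted p = 7.14e-06), and it was lower in 2 of 2 GL261 and higher in 4 of 4 GL261-GSCs libraries. Hbegf, a ligand of the EGF receptor, was at 378 and 309 against 657 and 554 in GL261 (-0.82) and at 0.45 on the log2 scale in GL261-GSCs, a difference of -1.27 (SE 0.13, edgeR adjusted p = 0.00278). Egr1 fell by 1.79 in GL261 and was at -0.27 in GL261-GSCs (difference -1.52, SE 0.25), and Dusp1 and Cited2 fell more in GL261, by 0.77 and 0.96. Of the immediate early list 6 of 19 genes had a difference that passed the test, in both directions. Thbs1, encoding thrombospondin 1, fell by 0.58 in GL261, from 1241 and 1503 to 764 and 1096, while in GL261-GSCs it was scarcely present, at 0.460 to 2.84 in the bottom cells and 1.96 to 5.99 in the members (difference -2.10). Ier5l was at -0.17 in GL261 and 0.92 in GL261-GSCs (difference -1.09). Of the 17 genes named for a difference only Timp3 kept its call whichever GL261 library was left out.

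Other genes rose more, or fell less, in GL261. Gja1, encoding a gap junction protein of the connexin family (ENSMUSG00000050953.10, chr10:56377330-56402513), was at 70.0 and 67.4 CPM in the GL261 members against 24.7 and 24.1 in the bottom cells, a rise of 1.49 on the log2 scale (SE 0.11), with 0.30 in GL261-GSCs (difference 1.19, SE 0.14, edgeR adjusted p = 0.00318). Sox2, a transcription factor of neural stem cells, was at 77.4 and 80.9 against 48.3 and 45.7 in GL261 (0.75) and at -0.14 in GL261-GSCs (difference 0.89, SE 0.15). Its value in GL261 lay between 0.63 and 0.88 over the settings, and was not called without GL261 replicate 2. Slc26a2, a sulphate transporter, rose by 0.92 in GL261 and was at -0.32 in GL261-GSCs (difference 1.24). Its rise in GL261 did not pass the test against bottom cells with few replication UMIs. In GL261-GSCs replicates 1 to 4 its log2 ratios were 0.12, -0.33, -0.85 and -0.70. Those of Gja1 were 0.53, 0.24, 0.30 and -0.12, and those of Sox2 were 0.08, -0.03, -0.12 and -0.56. For Slc26a2, Gja1 and Sox2 the libraries thus differed in sign. Erbb3 and Id3 fell by 0.82 and 1.15 in GL261-GSCs and did not pass the test in GL261, at 0.39 and 0.04 (differences 1.21 and 1.20). Between the GL261-GSCs libraries the log2 ratio ranged from -1.22 to -0.51 for Erbb3 and from -1.92 to -0.75 for Id3. Id3 was at 963 and 928 CPM in the GL261 members and at 8.99 to 38.5 in those of GL261-GSCs. Ngfr and Klf4 had differences of 1.76 and 1.27, but both rest on few UMIs in the members of GL261-GSCs, with 18, 1, 0 and 1 of Ngfr and 4, 7, 40 and 25 of Klf4 in the 4 libraries. H2afx, a histone variant of the DNA damage response, rose in both, by 1.62 in GL261 and 2.74 in GL261-GSCs (difference -1.12, SE 0.18), from bottom cells at 75.5 and 83.0 in GL261 and 35.0 to 45.3 in GL261-GSCs to members at 239 and 247 and at 203 to 345. Cdkn2d rose more in GL261 (difference 0.77), and Ung fell less (difference 1.64), with 24, 20, 10 and 6 UMIs in the members of GL261-GSCs. Against bottom cells with few replication UMIs 11 of the 17 differences no longer passed the test, and 8 did not without GL261-GSCs replicate 3.

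**Figure D5:**
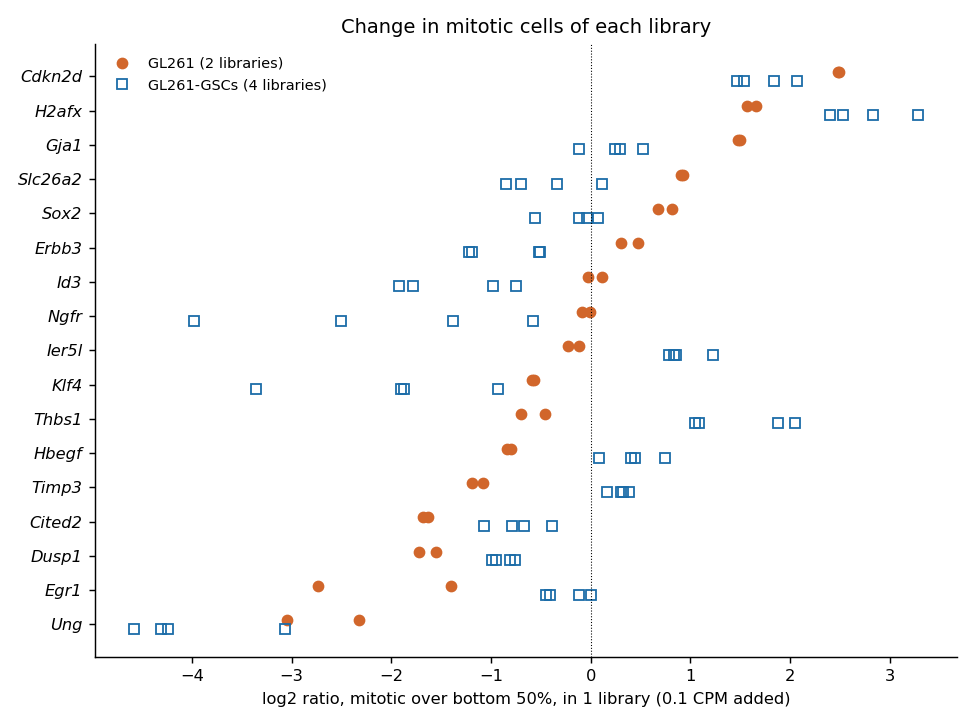
Log2 ratio of members over bottom cells in each library (horizontal axis, 0.1 CPM added) for 17 genes whose change differed between the cultures, with GL261 as circles and GL261-GSCs as squares. Timp3 lies at -1.19 and -1.08 in the GL261 libraries and between 0.16 and 0.39 in those of GL261-GSCs.

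The members held more UMIs per cell, a total that is also part of the score. The median was 18415 UMIs per cell in the members and 16368 in the bottom cells of replicate 1, and 15586 and 14135 in replicate 2. Genes per cell were 4892 against 4710 and 4554 against 4372, but at 8000 UMIs 3138 against 3187 and 3123 against 3172, so that the members had fewer genes at equal depth. Cells above 2 times the median of their library, where doublets would lie, made up 0.517% and 0.244% of the members and 0.103% and 0.0976% of the bottom cells, and doublets were not removed. Among 387 and 410 members and 1937 and 2050 bottom cells these shares are a few cells each, so no excess is read from them. Ribosomal protein genes held 14.7% and 14.5% of UMIs in the members and 14.4% and 14.2% in the bottom cells, higher by 0.347 and 0.302 points. In GL261-GSCs they were lower in the members of 4 of 4 libraries, with differences of -1.97 to -0.542 points. The mean difference between the cultures was 1.65 points (exact permutation test, 2-sided, p = 0.133, the smallest that 2 against 4 libraries allow; 0.222 adjusted over 5 measures). Of the other measures, mitochondrial UMIs and genes per cell also had cultures that did not overlap, at the same p and adjusted p. Mitochondrial UMIs were lower in the members by a mean of 0.0198 points in GL261 and 0.159 in GL261-GSCs, and genes per cell were higher by 182.3 and 397.0, or at 8000 UMIs lower by 49 in GL261 and higher by 31.1 in GL261-GSCs. Their part in the ribosomal difference was not tested. Of 79 ribosomal protein genes tested, 19 rose in GL261 and none fell (median 0.13), and 4 rose and 2 fell when scaled by library size alone. These calls rested on both GL261 libraries and were lost when either was left out. In GL261-GSCs 38 of the 79 fell and 1 rose, beside 21.3% and 13.6% of all genes there. The difference between the cultures was called by edgeR for 9 of them, each more positive in GL261, beside 1.19% of all genes, and 71 had an unadjusted p under 0.05. It was called for 28 by limma-voom, 1 with the size factors of DESeq2, 0 by the DESeq2 test, 0 by library size scaling, and 0 without either GL261 library or without GL261-GSCs replicate 3.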

How the data were processed

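The deposited files hold counts of unique molecular identifiers (UMIs) per gene and barcode, made by the authors with Cell Ranger 4 per the file headers, against mm10 per the submitters' processing notes. The 6 matrices list 54446 genes and 737280 barcodes, unfiltered. Barcodes with at least 8000 UMIs, 500 genes and under 10% mitochondrial UMIs were kept, and doublets were not called. UMIs were summed per library and class, since cells are not replicates, and tested with edgeR 4.0.16 (R 4.3.3): TMM scaling, filterByExpr, a quasi-likelihood fit with the library as a block, since both classes come from the same library, and Benjamini-Hochberg adjustment over 13790 genes. The 8 score genes were fitted but not counted. An SE is the log2 fold change over the root of its F. The fits were tested on simulated data. Named genes outside the score were the 12 largest rises and 10 largest falls of an average log2 CPM of at least 5, the smallest p of each list, 10 set genes and the 6 largest differences each way. Further list members were chosen after their values were seen. Some genes that this rule or the lists hold are not reported here, though the counts include them. The members and lists were chosen with earlier results of these data known. Gene positions came from GENCODE on GRCm38 and promoters from RefSeq. Alternatives covered scaling, filter, tool (limma 3.58.1, DESeq2 1.42.0), block, depth, limits of the classes and each library left out.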

Additional observations from a re-analysis of the deposited data

Results flagged for a closer look

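The change of the mitotic cells differed between GL261 and GL261-GSCs for 164 genes by the edgeR test of the difference, 123 more positive and 41 more negative in GL261, and 17 of the named genes were among them. More negative in GL261 were Thbs1 (-2.10), Egr1 (-1.52), Timp3 (-1.43), Hbegf (-1.27), H2afx (-1.12), Ier5l (-1.09), Cited2 (-0.96) and Dusp1 (-0.77) on the log2 scale. More positive were Ngfr (1.76), Ung (1.64), Klf4 (1.27), Slc26a2 (1.24), Erbb3 (1.21), Id3 (1.20), Gja1 (1.19), Sox2 (0.89) and Cdkn2d (0.77). Of these, Timp3, Hbegf, Thbs1 and Ier5l lay below 0 in both GL261 libraries and above 0 in all 4 of GL261-GSCs. Levels in the members of GL261-GSCs were low for Thbs1 (1.96 to 5.99 CPM), Ngfr (0.0 to 2.5), Ung (1.45 to 3.36) and Klf4 (0.56 to 11.5), so these ratios rest on few UMIs. Id3 was at 8.99 to 38.5 CPM there, against 963 and 928 in the GL261 members. Against bottom cells with few replication UMIs the calls of Cdkn2d, H2afx, Slc26a2, Sox2, Erbb3, Id3, Ngfr, Ier5l, Klf4, Egr1 and Ung were lost, and without GL261-GSCs replicate 3 those of Cdkn2d, H2afx, Sox2, Id3, Ngfr, Klf4, Egr1 and Ung. Klf4 lost its call under 8 settings that keep all libraries, and Ngfr under 6. Ung also lost its call with the DESeq2 test, in cells thinned to 8000 UMIs and with a score from 4 genes. Cdkn2d also lost its call by library size scaling and against bottom cells with many replication UMIs, and Egr1 for the top 5% of score.

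The share of UMIs from ribosomal protein genes was higher in the mitotic cells of both GL261 libraries and lower in those of all 4 GL261-GSCs libraries, a mean difference of 1.65 percentage points. The exact permutation test cannot go below p = 0.133 with 2 and 4 libraries, so for the summed share the value and the signs are given without a call. Gene by gene, the edgeR test called the difference for 9 of 79 ribosomal protein genes, and for 0 by library size scaling or with either GL261 library left out.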

How the results depend on the processing

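The edgeR test called 2508 genes changed in the mitotic cells of GL261. The DESeq2 test called 1441 (1436 of them among the 2508), cells thinned to 8000 UMIs gave 1504 (1439) and a fit on the GL261 libraries only gave 4689 (2500). That last fit leaves 1 residual degree of freedom for the spread, so its larger count is not read as stronger support. The classes of a library are paired by design, and without the replicate block 260 genes were called (1437 at an unadjusted p under 0.05). The other scalings, limits and tools gave 1795 to 3207, and leaving out 1 library gave 435 (GL261 replicate 1) to 3292 (GL261-GSCs replicate 4). The count of differences between the cultures, 164, became 109 with DESeq2 size factors, 102 by library size, 99 with the DESeq2 test, 85 in thinned cells, 109 for the top 5% of score and 547 without a filter on low counts (156 more positive and 391 more negative). It became 0 without the replicate block (334 at an unadjusted p under 0.05, edgeR) and 15 against bottom cells with few replication UMIs, and 2 (either GL261 replicate) to 399 (GL261-GSCs replicate 4) with 1 library left out, with 93, 101 and 40 without GL261-GSCs replicates 1, 2 and 3. Of 53 named genes called in GL261, no block lost 21, leaving out GL261 replicate 1 lost 9 and replicate 2 lost 7. The tests with all libraries and the block lost at most 2 under each setting, apart from reversals. The reversals were Pcna (0.0413), Mcm5 (0.33) and Slfn9 (0.37) against bottom cells with few replication UMIs and Ddit4 (0.076) against those with many. Of the 17 named differences no block lost 17, leaving out either GL261 replicate lost 15, bottom cells with few replication UMIs lost 11, leaving out GL261-GSCs replicate 3 lost 8 and each other setting lost at most 3. The comparison with parts of the bottom cells, and one without cells under 5% ribosomal UMIs, were chosen after seeing the data. Between the cultures, the difference in median UMIs (-769.4) became 13.38 with bottom cells matched on UMIs, as the matching itself sets it near 0. The difference in the share of G1/S UMIs, 0.00309 points, turned to -0.00463 for the top 20% of score and -0.01005 with matched cells, and ranged from -0.02871 without GL261 replicate 1 to 0.05737 without GL261-GSCs replicate 4, with -0.02784 and -0.02783 without GL261-GSCs replicates 1 and 2. With 2 GL261 libraries, depth and number limit what can be called, and calls with 1 of them assume that it varies like the other libraries.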

Other observations

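Of 5 oligodendrocyte lineage markers 3 were called higher in the mitotic cells of GL261 (Sox10, Pdgfra and Olig2), Olig2 with member UMIs in replicate 1 alone. Mbp fell, and 1 did not pass the edgeR test. Beside these, 9.98% of all genes tested rose and 8.21% fell. The list had no common direction. Its median log2 ratio was 0.37 in replicate 1 and -0.42 in replicate 2. The latter is the ratio of Olig2, from 0 UMIs in the members and 1 in the bottom cells, and follows from the 0.1 CPM added. The 2 medians therefore do not show that the libraries disagree, and Sox10, Pdgfra and Mbp each had the same direction in both. Sox10, a transcription factor of the lineage, was at 383 and 396 CPM in the members and 297 and 303 in the bottom cells (log2 fold change 0.38, SE 0.07, edgeR adjusted p = 0.00262). Mbp, encoding myelin basic protein, was at 86.2 and 156 against 145 and 249 (-0.72, SE 0.17, edgeR adjusted p = 0.0114). Pdgfra, a growth factor receptor gene, was at 10.4 and 7.56 against 7.28 and 4.55 (0.60). Olig2, a transcription factor of the lineage, had the highest fitted log2 fold change of the list, 1.54, but it rests on 16 and 0 UMIs in the members and 25 and 1 in the bottom cells. With GL261 replicate 1 left out none of the list passed the test, and 1 did without replicate 2. None of the 5 had a difference between GL261 and GL261-GSCs that passed the test. Calm2, encoding calmodulin, rose by 1.09 on the log2 scale in GL261 and 1.23 in GL261-GSCs, from 340 and 368 to 725 and 786 CPM in GL261.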
